A study of Mus musculus with 3 samples.

Results

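Potassium channels set the resting potential of a cell and shape how it responds to current, and the genes whose symbols start with Kcn encode most of them. The account below covers all protein-coding mouse genes with a symbol starting Kcn, apart from the inwardly rectifying Kcnj channels, which were left out by rule. This gave 79 of 21646 protein-coding genes of the GENCODE M21 annotation (mm10). The rule uses the symbol and no measured value, though it was chosen with earlier results of these data known. For each gene and replicate the strongest DNase I peak within 1 kb of any annotated start site was taken as its promoter peak. Peaks further away were assigned by distance, each to the protein-coding gene whose start site was nearest, up to 100 kb.

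Müller cells are the radial glia of the retina, and DNase-seq finds the stretches of open chromatin that DNase I cuts. The labels describe a single group of 3 biological replicates, all primary Müller cells of B6NCrl mice at 12 days after birth, with male and female animals pooled. Each replicate has a biosample of its own while the donor label is shared, so the spread between replicates may be technical in part. The extraction protocol named in the labels was written for cultured cells, and no sort, transgene, culture time or treatment is given. With 1 group there is no contrast between conditions, and the Kcn genes are described beside all protein-coding genes without a test.

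Voltage-gated Kv channels are built from 4-fold assemblies of pore-forming subunits, some of which are electrically silent alone and only modify the Kv2 pores. Calcium-activated channels couple the potassium current to intracellular calcium, two-pore-domain channels carry leak current, and small auxiliary proteins tune the gating or the surface level of the pores. Müller glia are known for clearing the potassium released by active neurons, chiefly through inward rectifiers of the Kcnj family. Large-conductance calcium-activated channels, two-pore-domain channels and several Kv currents have also been recorded in them.

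The replicates held 184544 to 300269 peaks, with replicate 3 the smallest, and read depth is unknown. A promoter is called open where peaks of all 3 replicates overlap within 1 kb of a start site, a statement about DNase accessibility and not about transcription. The 18 genes of a Müller glia list were all open, and 11 of 12 rod genes had no promoter peak in any replicate, Nrl and Crx among them. A list of 20 microglia and macrophage genes had a promoter peak at 20, 20 and 7 genes in replicates 1, 2 and 3. Its scores ran from 51 to 127 in replicate 1, from 49 to 122 in replicate 2 and from 0 to 127 in replicate 3, where Spi1, Csf1r and Cx3cr1 had no peak. Replicates 1 and 2 therefore differed from replicate 3 in the markers of another cell type, and values of the Kcn genes are given per replicate throughout.

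Most Kcn promoters were open, and nearly all scored below the median of all genes with a promoter peak in the same replicate. A reproducible promoter site was found at 63 of 79 Kcn genes (79.7%), beside 67.1% of all genes. Replicates 1, 2 and 3 alone had a promoter peak at 65, 65 and 67 Kcn genes (82.3%, 82.3% and 84.8%), beside 72.6%, 71.8% and 69.7% of all genes. A further 10 Kcn genes (12.7%) had no promoter peak in any replicate, beside 25.5% of all genes. The excess of open promoters depended on weak peaks being counted. With the strongest 50% of peaks from each replicate, 44 Kcn genes (55.7%) were open against 61% of all genes, so the order of the 2 shares turned.

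The strength of a promoter peak is given by the deposited peak score, a whole number between 1 and 150 whose meaning is not stated in the sources used here. It is compared between genes within a replicate. Means over the replicates and ranks by the lowest score over them do combine scores of different replicates. Median scores of Kcn distal sites were 74, 61 and 43 in replicates 1, 2 and 3, so ranks of distal sites lean on replicate 3. Among Kcn genes with a promoter peak the replicates gave median scores of 78, 63 and 71 in turn (mean 70.7 ± 7.51, SD, n = 3), and that of all genes was 123, 115 and 113 (mean 117 ± 5.29). The typical Kcn promoter with a peak in every replicate stood at the percentile 20.3, 18.2 and 21.2 of all genes with a peak. Only 2 Kcn genes, Kcnab2 among them, exceeded the median of all genes in every replicate. Hotspots, the wider accessible regions of the deposited lists, were also narrower at Kcn promoters in replicates 1 and 2, with a median width of 606 and 476 bp against 1010 and 795 bp for all genes. In replicate 3 the widths were closer, 1075 bp against 1135 bp. A promoter hotspot at the cap of 100 on the −log10 q scale in every replicate was found at 42 Kcn genes (53.2%), beside 60.5% of all genes.

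**Figure D1:**
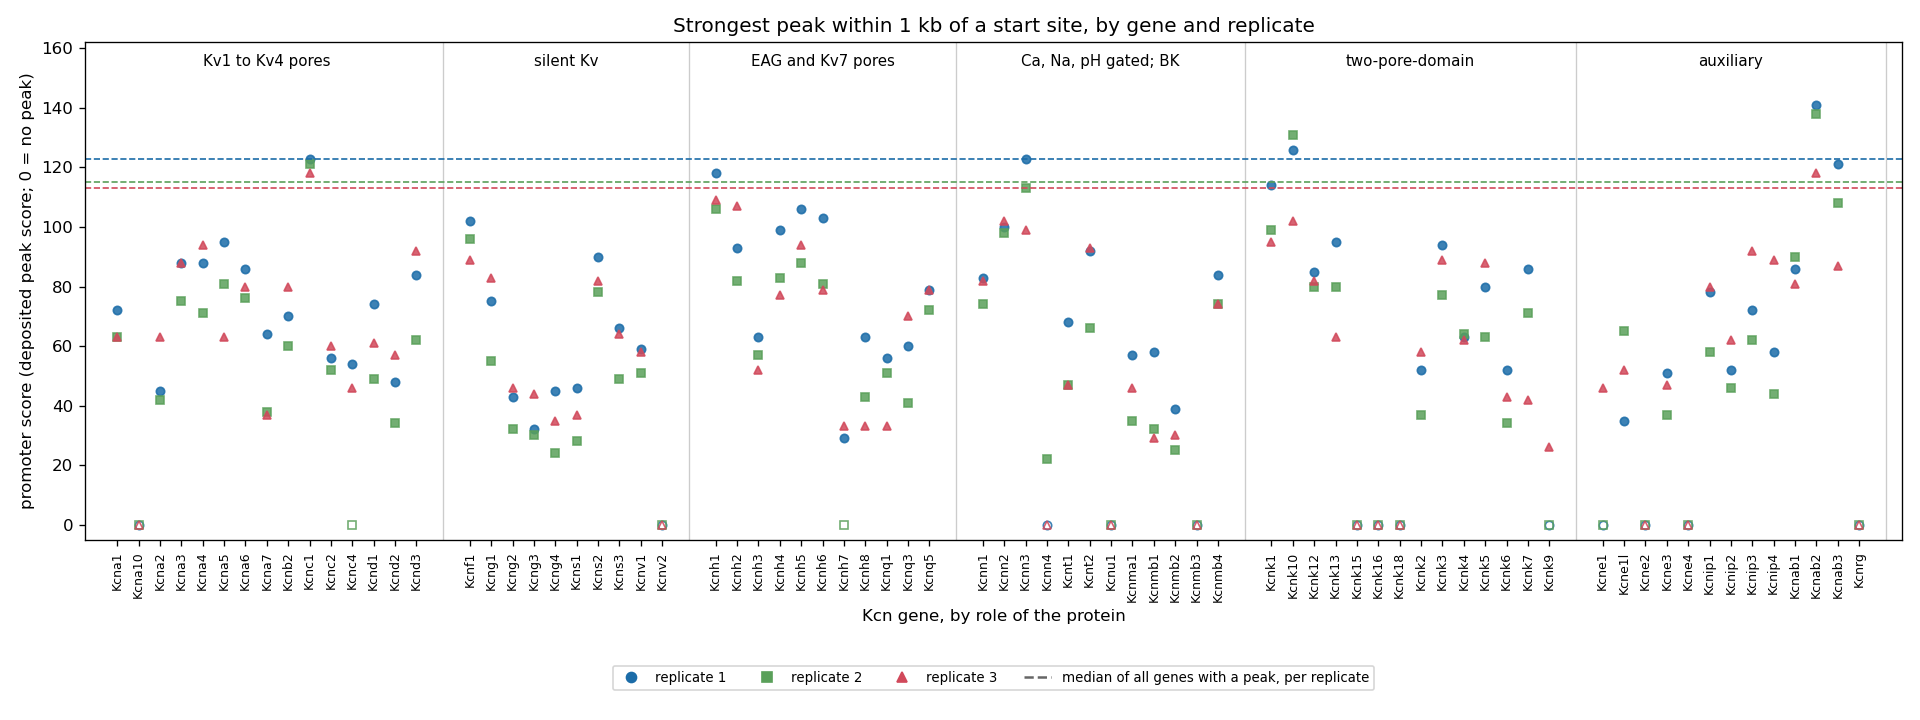
Promoter score (vertical axis, deposited score of the strongest peak within 1 kb of a start site, 0 where there is no peak) of 75 Kcn genes (horizontal axis, grouped by role), with a circle, square and triangle for replicates 1, 2 and 3. Dashed lines mark the medians of all genes with a peak, 123, 115 and 113 in replicates 1, 2 and 3, and most Kcn genes lie under them.

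CpG-rich promoters are accessible in most tissues, so Kcn genes were also read beside genes of similar CpG content, taken as the observed over expected CpG ratio in 1000 bp around a start site and divided into quintiles of all genes. In the middle quintile 17 of 18 Kcn promoters were open, beside 89% of all genes there. Their median scores of 68, 58 and 63 in replicates 1, 2 and 3 lay well under the 121, 111 and 108 of all genes in the same quintile. In the fourth quintile 21 of 23 were open (96.7% of all genes), and the medians were 85, 76 and 82 against 131, 124.5 and 120. In the richest quintile 10 of 12 were open (97.9% of all genes), with medians of 84, 73 and 83.5 against 134, 128 and 123. The low scores of Kcn promoters were thus present at medium and high CpG content in all 3 replicates. In the second quintile 13 of 21 were open (42.1% of all genes), and the medians of 86, 71 and 63 were close to the 91, 79 and 72 of all genes. In the poorest quintile 2 of 5 were open (9.79% of all genes), the auxiliary and silent subunit genes Kcnmb1 and Kcng4, and the medians of these 2 were 51.5, 28 and 32 against 74, 62 and 43.

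**Figure D2:**
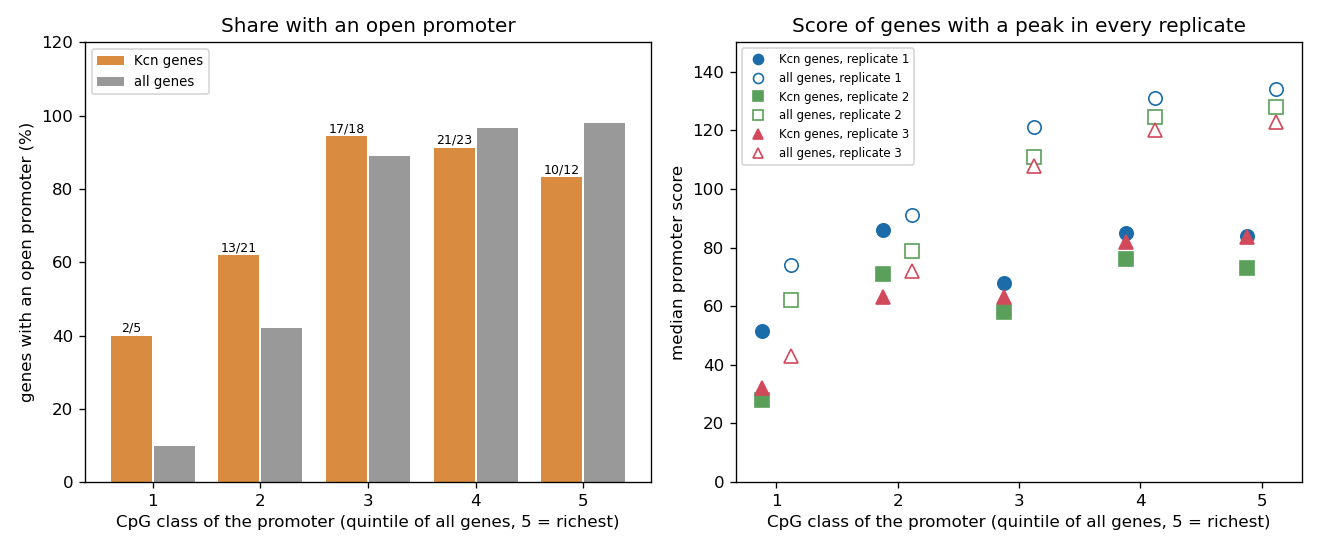
Share of genes with an open promoter (left, bars, percent) and median promoter score of genes with a peak in every replicate (right, filled symbols for Kcn genes, open symbols for all genes, shape and colour by replicate) in quintiles of promoter CpG content. From the third quintile on, every Kcn median lies under 90 while every median of all genes lies above 100.

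The Kv1 to Kv4 pores, which carry the delayed rectifier and A-type currents of excitable cells, were open in 15 of 17 cases (88.2%). For this and each role below, the share over all genes was 67.1%. Open genes included Kcna1, Kcna2, Kcna3, Kcna4, Kcna5, Kcna6 and Kcna7 of the Kv1 family, Kcnb2 of Kv2, Kcnc1 and Kcnc2 of Kv3, and Kcnd1, Kcnd2 and Kcnd3 of Kv4. Kcna10 had no promoter peak, and Kcnc4 had a peak of 54 in replicate 1, none in replicate 2 and 46 in replicate 3. Kcnc1, a fast Kv3 pore of rapidly firing neurons, scored 123, 121 and 118, far above its relative Kcnc2, which scored 56, 52 and 60. Kcnb2, a delayed rectifier of Kv2, scored 70, 60 and 80. Kcna3, known from microglia and T cells, scored 88, 75 and 88, which put it at the percentiles 24.3, 23.2 and 27.3 of all genes with a peak. Kcnd2, an A-type pore, was near the lower end with 48, 34 and 57.

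Silent subunits form no channel alone and join Kv2 pores. They were open in 9 of 10 cases (90%, beside 67.1% of all genes), namely Kcnf1, Kcng1, Kcng2, Kcng3, Kcng4, Kcns1, Kcns2, Kcns3 and Kcnv1. Kcnf1 was the strongest with 102, 96 and 89. The Kcng genes were weak, with medians of 44, 31 and 45 over the 4 genes in replicates 1, 2 and 3. The exception was Kcnv2, whose protein pairs with Kv2 pores in photoreceptors and which had no promoter peak in any replicate. Of a rod gene list, 11 of 12 promoters also had no peak. The CpG ratio of the Kcnv2 promoter, 0.273, falls in the second quintile of all genes, where 42.1% of all genes were open. Why Kcnv2 had no promoter peak was not tested.

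The EAG-related and Kv7 pores were open in 11 of 13 cases (84.6%, beside 67.1% of all genes). Among them were Kcnh1, Kcnh2, Kcnh3, Kcnh4, Kcnh5, Kcnh6 and Kcnh8, and Kcnq1, Kcnq3 and Kcnq5. Kcnh1, which encodes the EAG channel, scored 118, 106 and 109, and Kcnh5 scored 106, 88 and 94. Kcnh7 scored 29 in replicate 1 and 33 in replicate 3 and lacked a peak in replicate 2. The Kv7 genes encode M-type and related channels. Kcnq5 scored 79, 72 and 79, and Kcnq1, which serves cardiac and epithelial cells, scored 56, 51 and 33.

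Channels gated by calcium, sodium or pH were open at Kcnn1, Kcnn2, Kcnn3, Kcnt1 and Kcnt2, and not at Kcnn4 or at Kcnu1, a channel of sperm. That makes 5 of 7 (71.4%), close to the 67.1% of all genes. Kcnn3, a small-conductance calcium-activated pore, scored 123, 113 and 99, and Kcnn2 scored 100, 98 and 102. Kcnn4, the intermediate-conductance channel of blood cells and microglia, had a peak of 22 in replicate 2 alone. The large-conductance BK pore Kcnma1, recorded in Müller glia of several species, had a weak promoter with scores of 57, 35 and 46. Its beta subunit genes Kcnmb1, Kcnmb2 and Kcnmb4 were open and Kcnmb3 was not, so 4 of 5 BK genes (80%) were open.

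Two-pore-domain leak channels had the lowest open share of the 7 roles, 9 of 14 (64.3%), which is close to the 67.1% of all genes, with Kcnk1, Kcnk2, Kcnk3, Kcnk4, Kcnk5, Kcnk6, Kcnk10, Kcnk12 and Kcnk13 open. Kcnk15, Kcnk16 and Kcnk18 had no promoter peak. Kcnk9 had a peak of 26 in replicate 3 alone, and Kcnk7 had peaks of 86, 71 and 42 that did not overlap across all replicates. Kcnk10, a mechanosensitive TREK channel, scored 126, 131 and 102, and Kcnk1, a TWIK channel, scored 114, 99 and 95. Kcnk2, the other TREK channel described in Müller glia, was much weaker with 52, 37 and 58, and Kcnk3, an acid-sensitive TASK channel, scored 94, 77 and 89. Kcnk13, the THIK channel that sets the resting potential of microglia, scored 95, 80 and 63. Kcnk6, another TWIK channel, scored 52, 34 and 43.

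Auxiliary subunits were open in 10 of 13 cases (76.9%, beside 67.1% of all genes). The cytoplasmic beta subunits of Kv1 were open at Kcnab1, Kcnab2 and Kcnab3, the calcium-binding partners of Kv4 at Kcnip1, Kcnip2, Kcnip3 and Kcnip4, and the single-span Kcne proteins at Kcne1, Kcne1l and Kcne3. Kcne2, Kcne4 and Kcnrg, which encodes a soluble inhibitor of Kv assembly, had no promoter peak. Kcnab2 scored 141, 138 and 118 and Kcnab3 scored 121, 108 and 87. The strongest Kcnab2 site lay nearest to its own start, but a second promoter site, at chr4:152478036-152478225, lay nearest to a start of Nphp4. Kcnip3, which encodes a Kv4 partner that also acts as a calcium-dependent transcription factor, scored 72, 62 and 92. Kcne1 counts as open through a merged region that reaches into the window, while its own promoter peak was 46 in replicate 3 and absent in replicates 1 and 2. It was not open when that window was set to 500 bp. Of the open genes, 12 had a score of at least 87 in every replicate, and a further 50 had a lowest score of 24 to 82.

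Some Kcn genes have start sites far apart, and openness could differ between them. Start sites within 1 kb of each other were joined into groups, which left 25 Kcn genes with more than 1 group and 65 groups among them. Of these groups 33 were open (50.8%), beside 42.7% of the groups of all genes with several. At 13 of the 25 Kcn genes (52%) some groups were open and others not, close to the 57.2% of all genes with several groups. Kcnk2 had a peak of 25 in replicate 1 alone at its upstream start and scores of 52, 37 and 58 at the group 58026 bp downstream. Kcnma1 had no peak at its most upstream start and was open at the group 9632 bp downstream, while its 3 inner groups were not open. Kcnip4 was open at all 4 of its groups, which span 925225 bp, and the strongest score of replicate 3, 89, came from the most downstream group. Kcnn2 was open at its first group with 100, 98 and 102 and at a second one 291149 bp downstream with 92, 76 and 99.

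The sequence of one of the stronger Kcn promoter sites is shown for Kcnh1, whose site at chr1:192190656-192190825 has a stretch of 118 bp free of annotated exons. The stronger sites of Kcnc1 and Kcnab2 lie in exons and are not shown. Capitals mark GGGCGG, the GC box of SP and KLF factors, in either direction on the plus strand of mm10.
Kcnh1 chr1:192190656-192190773: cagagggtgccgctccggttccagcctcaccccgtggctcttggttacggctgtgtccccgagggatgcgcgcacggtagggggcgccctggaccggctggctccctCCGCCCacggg
This stretch lies between genes and ends at the start site of Kcnh1. A GC box was present in the central 150 bp of 40.7% of the 108 promoter sites of Kcn genes and of 44.6% of all promoter sites.

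Of the 9 motifs searched, the one whose share at Kcn promoter sites stood highest as a multiple of that at all promoter sites was the left arm of the RE1 element, TTCAGCACC, which is known as the binding sequence of the neuronal gene repressor REST. It was chosen for description after its counts were seen. In the central 150 bp, read on both strands, it was found in 5 of 108 Kcn promoter sites (4.63%), beside 0.505% of 24971 promoter sites of all genes. Distal sites of Kcn genes held it in 7 of 587 cases (1.19%), beside 0.382% of 86085. The sites belong to 12 different genes. A match is a description of letters and does not show that a factor was bound. The 5 promoter matches and the 2 distal ones followed by the right arm, GGACAG, are printed 5′ to 3′ on the strand of the match, with the arms in capitals.
Kcnc1 chr7:46396844-46396867: TTCAGCACCgccgcggaagcctga
Kcnh4 chr11:100759004-100759027: TTCAGCACCctGGACAGccgcaca
Kcnh6 chr11:106007962-106007985: TTCAGCACCacgacgcGGACAGct
Kcnk3 chr5:30588091-30588114: TTCAGCACCacccaccaccctcct
Kcns2 chr15:34837452-34837475: TTCAGCACCaccgcgcagcaccag
Kcnab2 chr4:152424536-152424559: TTCAGCACCcaGGACAGctcctga
Kcnh2 chr5:24357606-24357629: TTCAGCACCtcGGACAGaggcaga
The arms are 2 bases apart at Kcnh4, Kcnab2 and Kcnh2 and 7 bases apart at Kcnh6. The matches of Kcnc1 and Kcns2 lie in exons, those of Kcnh4 and Kcnab2 in introns, and those of Kcnh6, Kcnk3 and Kcnh2 between genes. The Kcnh4 promoter site scored 68, 49 and 52 and the Kcnh6 promoter site 103, 81 and 79. Both lay under the median promoter scores of all genes with a peak, 123, 115 and 113. The distal Kcnh2 site scored 115, 102 and 71, above the medians of all distal sites, 78, 65 and 46. Both arms within 30 bases were found in 2 Kcn promoter sites (1.85%), beside 0.204% of all promoter sites.

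Distal accessible sites were more numerous around Kcn genes than around genes in general. In all 587 reproducible distal sites were given to the 79 genes, a mean of 7.43 and a median of 6 per gene against 3.98 and 2 over all genes. At least 1 such site was found for 76 Kcn genes (96.2%), beside 69.8% of all genes. Kcnd1, Kcnh4 and Kcnk4 had none. Each replicate's own distal peaks came to 14.7, 13.7 and 9.14 per Kcn gene in turn (mean 12.5 ± 2.98, SD, n = 3) against 8.52, 8.06 and 5.02 per gene overall. The value depends on replicate 3: without it the mean number of shared sites was 11.6 per Kcn gene and 6.7 per gene overall.

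More genome fell to Kcn genes than to genes in general, so the counts were also read beside genes with a similar length. The median Kcn gene had 101958 bp of genome nearest to its start sites within 100 kb, against 43181.5 bp for all genes. Where 100 to 150 kb fell to a gene, the median was 6.5 sites for 18 Kcn genes and 6 for all genes, and with 150 to 200 kb it was 8 for 14 Kcn genes and 9 for all genes. Above 200 kb the medians were 18 and 17. The medians were 1 and 0 under 25 kb and 5 and 4 at 50 to 100 kb. They were furthest apart at 25 to 50 kb, with 5 sites for 8 Kcn genes against 2 for all genes. Over genes with at least 10000 bp the median density was 6.07 sites per 100 kb for Kcn genes and 4.7 for all genes.

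**Figure D3:**
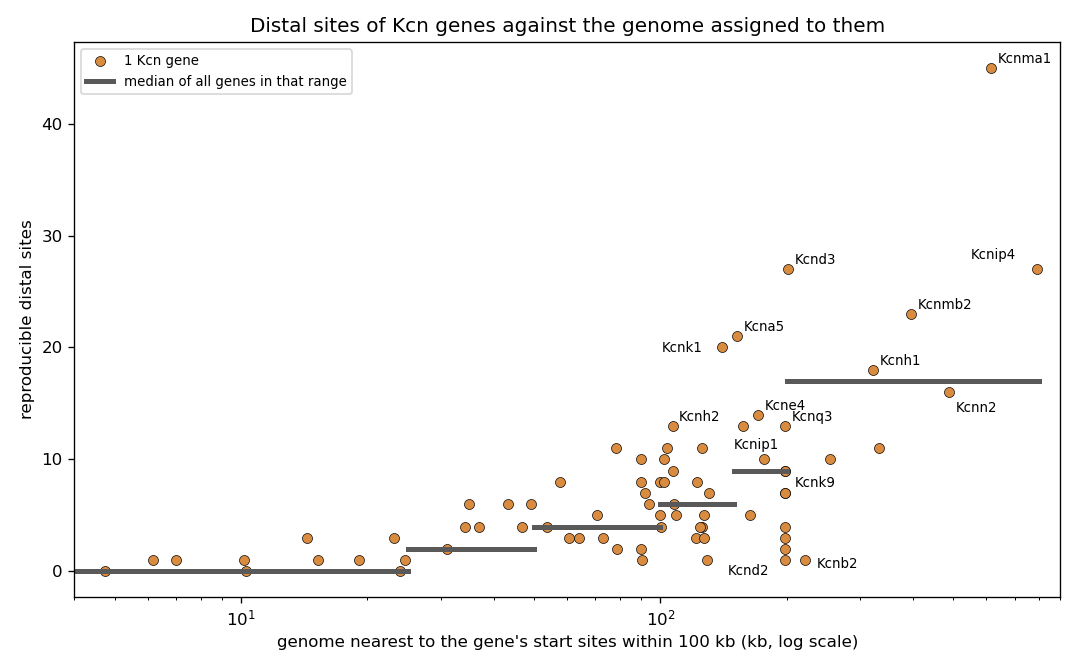
Reproducible distal sites of 75 Kcn genes (vertical axis) against the length of genome nearest to its start sites within 100 kb (horizontal axis, kb, log scale), 1 point per gene. Grey lines give the median of all genes in each length range. Kcnma1 stands at 45 sites in 613986 bp, where the median is 17 for all genes with over 200 kb, a range without an upper limit. Kcnb2 and Kcnd2 lie at 1.

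At least 20 distal sites were found at 6 Kcn genes (7.59%), beside 2.52% of all genes. These shares are not matched for the length of genome that falls to a gene, which was larger for Kcn genes. Kcnma1, the BK pore, had 45 distal sites, and its own peaks numbered 97, 90 and 55 in replicates 1, 2 and 3. The 45 sites fell to 613986 bp of genome, which makes 7.33 per 100 kb. Over genes with at least 10000 bp the median was 6.07 for Kcn genes and 4.7 for all genes. Of the 45 sites 38 lay in its introns, and their median score was 76, 61 and 35. Ranked by the lowest score over the replicates, the first was a site at chr14:23885656-23885845 in an intron, which scored 115, 119 and 103 and held an AP-1 consensus. In replicate 1 other sites scored up to 121. So the gene with the most distal sites had one of the weaker promoters.

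Kcnd3, an A-type pore of heart and brain, had 27 sites and 44, 41 and 34 own peaks. Kcnip4, a partner of Kv4 pores, also had 27, with 49, 52 and 33 own peaks, and its sites fell to 792000 bp of genome where those of Kcnd3 fell to 201696 bp. Kcnmb2, a BK beta subunit, had 23 sites in 396000 bp. Its own peaks numbered 38, 37 and 32 in spite of promoter scores of 39, 25 and 30. All 21 sites of Kcna5, a Kv1 pore of heart and smooth muscle, lay between genes, and its own peaks numbered 36, 36 and 22. Kcnk1 had 20 sites and 28, 32 and 21 own peaks in 140360 bp, and its highest by lowest score, at chr8:125987256-125987465 and 7810 bp upstream, scored 138, 126 and 106. Another Kcnk1 site, at chr8:125957656-125957805, scored higher in replicates 1 and 2 and lower in replicate 3, with 141, 134 and 92. Each of these genes had fewer peaks in replicate 3 than in replicates 1 and 2. The same held over all genes, with 8.52, 8.06 and 5.02 distal peaks per gene in replicates 1, 2 and 3.

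Further members with many sites were Kcnh1 with 18, Kcnn2 with 16 and Kcne4, a single-span subunit without a promoter peak, with 14. Their own peaks numbered 34, 32 and 22 for Kcnh1, 36, 30 and 18 for Kcnn2, and 25, 25 and 15 for Kcne4. Kcnh2, which encodes the ERG channel of cardiac repolarisation, Kcnip1 and Kcnq3 each had 13, with 22, 20 and 18 own peaks at Kcnh2, 30, 23 and 15 at Kcnip1, and 20, 20 and 15 at Kcnq3. Other long genes had few. Kcnb2 and Kcnd2 had 1 reproducible site each, in 221198 and 198000 bp of genome, with 6, 4 and 1 own peaks at Kcnb2 and 7, 2 and 1 at Kcnd2.

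**Figure D4:**
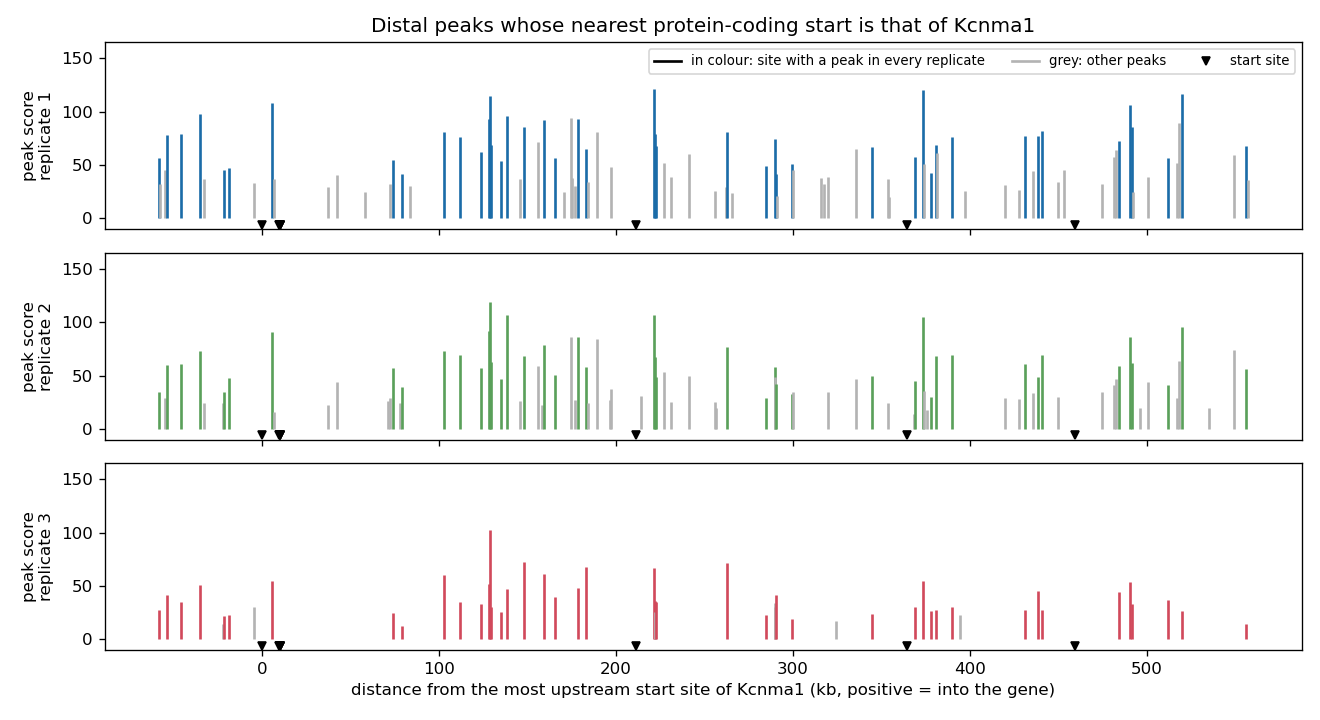
Distal peaks assigned to Kcnma1 in replicates 1, 2 and 3 (panels from top to bottom), with the deposited score as height (vertical axis) and distance in kb from the most upstream start site (horizontal axis, positive into the gene). Coloured lines are the 45 sites with a peak in every replicate, grey lines are other peaks and triangles mark start sites. Most grey peaks stand in the upper 2 panels, where 33 regions were shared by replicates 1 and 2 alone.

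By strength and place the distal sites of Kcn genes resembled those of all genes. Their median score was 74, 61 and 43 in replicates 1, 2 and 3, against 78, 65 and 46 over all distal sites. Of the 587 sites 47.2% lay in an intron of the gene itself and 44.6% between genes, against 44.5% and 43.3% over all. They were further away, with a median distance of 31100 bp to the start site against 22250 bp. Within 1 kb of a start site of a non-coding GENCODE gene lay 13 of them (2.21%), against 4.08% of all distal sites. AP-1 consensus TGANTCA was found in 22.1% (20.6% of all distal sites), the NFI consensus TTGGCA in 18.4% (17.1%) and the TEAD consensus GGAATG in 16.5% (19%), each on both strands in the central 150 bp.

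Single distal sites reached the scores of strong promoters, also at genes whose own promoter scored lower or had no peak. A site given to Kcnrg at chr14:61648796-61648945, with scores of 144, 137 and 135 in replicates 1, 2 and 3, overlaps a start site of the non-coding gene Dleu2. At Kcnn1 a site 2532 bp upstream of the start, at chr8:70865696-70865885, scored 141, 133 and 128 while the strongest promoter peak scored 83, 74 and 82. At Kcnk2 a site 3262 bp upstream, at chr1:189405396-189405565, scored 140, 136 and 121, more than its promoter sites in every replicate. Kcnv2 had 7 distal sites without a promoter peak, and the one with the highest lowest score, at chr19:27364716-27364905 and 42222 bp downstream, had 125, 108 and 109. A further Kcnv2 site, at chr19:27369756-27370045, scored 126, 121 and 93 and held none of the motifs searched. The former held an AP-1 consensus and the photoreceptor factor consensus TAATCC of CRX and OTX, which 3.41% of Kcn distal sites and 3.86% of all distal sites held.

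The 63 Kcn genes with a promoter peak in both replicate 1 and replicate 2 all had one in replicate 3 as well. None of the 79 thus lacked a peak in replicate 3 alone, beside 3.02% of all genes. The reverse, a peak in replicate 3 and not in both others, was found at Kcnc4, Kcne1, Kcnh7 and Kcnk9, 4 of 79 (5.06%) beside 1.94% of all genes, all with scores of at most 46 in replicate 3. Across the 63 Kcn genes with a peak in replicates 1 and 2, the Spearman correlation of the score was 0.935. It was 0.819 across the 65 with a peak in replicates 1 and 3, and 0.811 across the 63 with a peak in replicates 2 and 3. The same order held over all genes with 0.974, 0.897 and 0.897, and these correlations are across genes, which share their libraries. Kcn genes did not shift as a group: the percentile among all genes was higher in replicate 3 than the mean of the others at 31 of 63 (49.2%), beside 47.8% of all genes.

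Single promoters did shift. Kcnab2 stood at the percentile 83.8 on average in replicates 1 and 2 and at 56.6 in replicate 3, and Kcnk10 at 63.1 and 37.8. Kcnab3, Kcnk7, Kcnn3, Kcna5 and Kcnk13 were also lower in replicate 3, with differences from -18.9 to -11.4 percentile points. Kcnip4 went the other way, from 11.2 to 27.9, as did Kcnh2, from 26.7 to 42.7, and Kcnip3, from 17.6 to 30. Each of these compares 1 library with 2 others, and the part of the macrophage markers in them was not tested.

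**Figure D5:**
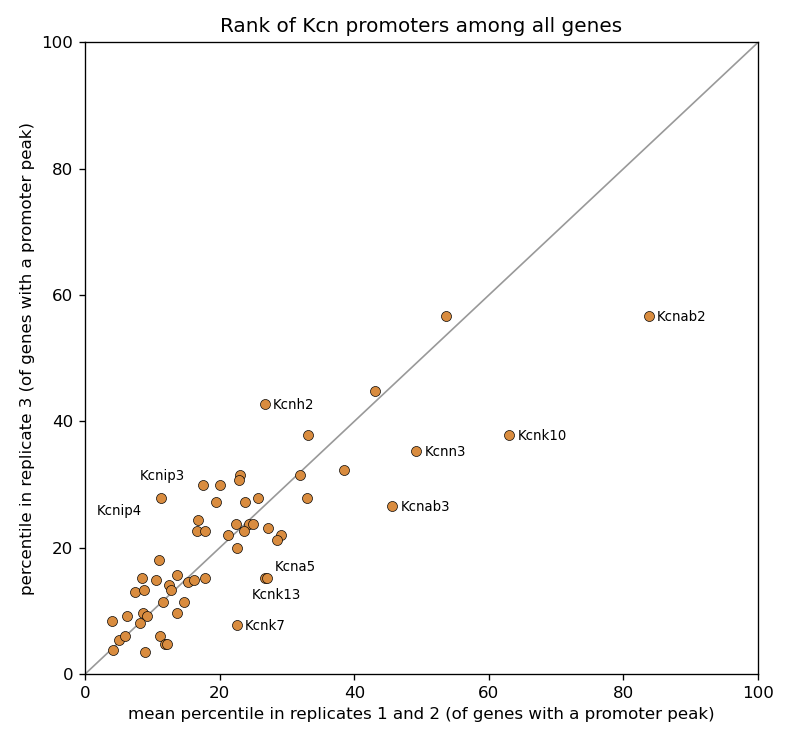
Percentile of each Kcn promoter score among all genes with a promoter peak, in replicate 3 (vertical axis) against the mean of replicates 1 and 2 (horizontal axis), for 60 Kcn genes with a peak in every replicate. The line marks equal rank. Most genes lie under the percentile 40 on both axes, and Kcnab2 and Kcnk10 lie furthest below the line.

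Distal regions of Kcn genes were lost from replicate 3 about as often as elsewhere. Of 1361 merged distal regions 323 (23.7%) had peaks in replicates 1 and 2 alone, against 27.2% over all genes, and 75 (5.51%) had a peak in replicate 3 alone, against 5.34%. Among the genes known from microglia, Kcnk13 had 13 of 31 regions in replicates 1 and 2 alone and none in replicate 3 alone, Kcna3 had 6 of 17 and 1, and Kcnn4 had 2 of 7 and none. A Kcna3 site at -1188 bp from the start, chr3:107034896-107035065, scored 75 and 70 in replicates 1 and 2 and was absent from replicate 3. Kcna4, a Kv1 pore of neurons and heart, had 12 of 24 regions in replicates 1 and 2 alone. The macrophage list stood at 20, 20 and 7 promoters with a peak in the same libraries, and its part in these regions was not tested.

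Ranked by the lower score of replicates 1 and 2, the strongest regions absent from replicate 3 were near Kcne2 and within Kcnma1, and their sequences are shown on the plus strand with the RUNX consensus TGTGGT, in either direction, in capitals. The Kcne2 site lies between genes, at -42128 bp from the start, and scored 109 and 94 in replicates 1 and 2. Close beside it, at chr16:92249796-92249965, another Kcne2 site had a peak in every replicate, with 130, 121 and 85, so replicate 3 was accessible nearby. The Kcnma1 site lies in an intron and scored 94 and 86.
Kcne2 chr16:92250176-92250345: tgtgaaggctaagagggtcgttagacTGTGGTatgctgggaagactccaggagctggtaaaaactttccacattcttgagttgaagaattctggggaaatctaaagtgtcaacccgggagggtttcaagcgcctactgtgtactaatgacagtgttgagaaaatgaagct
Kcnma1 chr14:23839756-23839925: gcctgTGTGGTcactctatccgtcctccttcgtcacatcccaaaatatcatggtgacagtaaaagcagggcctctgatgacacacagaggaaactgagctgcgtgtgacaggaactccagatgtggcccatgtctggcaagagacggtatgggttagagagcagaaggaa
The Kcnma1 match lies outside the central 150 bp, so this region does not count as one with the motif. The RUNX consensus was found in the central 150 bp of 23.8% of the 323 Kcn regions in replicates 1 and 2 alone, against 19.2% of all such regions, and in 17.9% of the Kcn sites shared by all replicates, against 17.1%. The PU.1 consensus GAGGAAGT of macrophage enhancers was found in 3.1% of the Kcn regions in replicates 1 and 2 alone and in 0.511% of those in all replicates, against 3.75% and 1.3% over all genes. In the opposite direction, the strongest distal peak seen in replicate 3 alone lies near Kcnd3 at chr3:105404116-105404265, with a score of 99. Close beside it, at chr3:105403836-105403985, lies a Kcnd3 site with a peak in every replicate, which scored 142, 142 and 121.

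Other ion channel families gave similar promoter levels. With 0 for genes without a peak, the median score over all 79 Kcn genes was 66, 55 and 63 in replicates 1, 2 and 3, against 101, 89 and 90 for all genes. For the lists that follow, the share of open promoters over all genes was 67.1%. Voltage-gated calcium channel genes were open in 15 of 18 cases (83.3%), with medians of 75.5, 60 and 68.5. Sodium channel genes were open in 8 of 13 (61.5%), with medians of 68, 57 and 63. The 4 HCN channel genes were all open with medians of 74, 64.5 and 74.5. Partner proteins of potassium channels outside the Kcn symbols, such as Dpp6 and Dlg4, were open in 11 of 17 cases (64.7%). Their medians were 59, 64 and 71. Pumps and cotransporters that move potassium were open in 12 of 17 cases (70.6%), and their medians of 107, 92 and 104 lay above those of every channel list. The Müller glia list stood higher still with 131.5, 124 and 113, and it includes the inward rectifier Kcnj10 with 133, 124 and 121. Lists of astrocyte, pericyte and endothelial genes were open in 6 of 6, 7 of 8 and 5 of 8 cases, those of oligodendrocyte and pigment epithelium genes in 3 of 8 and 5 of 8, and those of cones and other retinal neurons in 3 of 8 and 10 of 14. The part of other cells in the Kcn values was not tested.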

How the data were processed

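DNase-seq peaks and hotspots were used as deposited by the authors for each of the 3 replicates, with coordinates on mm10 per the file descriptions. The deposited peak value is a score, a whole number from 1 to 150, and neither its definition nor the aligner or peak caller is given in the sources used here. Deposited hotspots carry a −log10 q value from 1.30 to a cap of 100. Lists were made per library, not from pooled replicates. No read counts were given, so depth is unknown and no interval could be set on a value.

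Repeated peak positions were removed (20 to 23 per replicate), and overlapping peaks of different replicates (1 bp or more) were joined. This gave 351961 regions on autosomes and X, of which 145262 (41.3%) had a peak of all 3 replicates and are called reproducible. Start sites are those of protein-coding transcripts in GENCODE M21. Distance alone does not tell which gene a distal site acts on. CpG content and sequences were read from the GRCm38 RefSeq assembly, the sequence of mm10, with pysam 0.24.0, and the assignment was tested on simulated sites. Other tools were Python 3.11.15, numpy 2.4.6 and matplotlib 3.10.9.

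The genes, gene lists and motifs were chosen with earlier results of these data known. Genes are named with their promoter class, apart from 4 that are counted but not reported by name here. Values per replicate are given for the 12 strongest open promoters, for genes whose promoter peak differed between replicate 3 and the others, for the 10 genes with most distal sites (ties kept) and for genes known from Müller glia, photoreceptors or microglia. With 1 group no test was run. Alternatives changed the windows, the overlap, the number or strength of peaks, the start sites, peaks for hotspots, and left out each replicate. Sequences on chromosome 18 and those within exons beyond short motif matches are not shown.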

Additional observations from a re-analysis of the deposited data

How the results depend on the processing

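Under 13 other settings the number of Kcn genes with an open promoter lay between 44, with the strongest 50% of peaks, and 67, with a promoter window of 2500 bp. Of the 79 genes 43 were open under every setting and 10 under none. With 184322 peaks from each replicate 56 were open (70.9% against 64.6% of all genes). Leaving out 1 replicate gave 63 to 65. The mean number of distal sites per Kcn gene, 7.43, was 3.63 with the strongest 50% of peaks and 10.8 with a distal limit of 500 kb, and 7.63 to 11.6 when 1 replicate was left out. It stayed above the mean of all genes under each setting that gives it. The number of Kcn genes without a distal site, 3, was 7 with a promoter window of 2500 bp, 7 with that equal number of peaks and 15 with the strongest 50% of peaks. That subset also gave a median promoter score of 79.3 and 1 gene with a promoter peak in replicates 1 and 2 and none in replicate 3. Hotspots carry no peak score and so gave no median score. The cause of these shifts was not tested beyond the smaller or larger sets that the settings define. No paired analysis was possible because the series holds 1 group. The unknown depth limits what an absent peak means: a gene without a peak may be accessible below what each library could show.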
